A study of Homo sapiens with 20 samples.

Results

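GC-rich clusters are the binding-site clusters of IGF2BP3 whose sequence is at least 60 percent guanine plus cytosine. They were taken by that rule from the 15 anti-IGF2BP3 cluster lists, without the mitochondrial chromosome, and numbered 26323 of 410579 clusters, against 384256 remaining ones. The rule used the letters of each cluster sequence and no measured value. IGF2BP3 PAR-CLIP was done in HCT116 cells, a human colorectal carcinoma line, of the genotype Tet-OsTIR1-PURO, which conditionally expresses the plant F-box protein OsTIR1 in every group, controls included. All cells received 100 µM 4-thiouridine for 15 h and 365 nm light at 0.15 J/cm2. The 5 groups of 3 libraries were PBS for 2 h, arsenite at 250 µM for 2 h, DMSO for 4 h, tunicamycin (TM) at 5 µg/mL for 1 h and TM at 5 µg/mL for 4 h. Arsenite is the agent's name in the sample titles, while the treatment protocol writes sodium arsenate. One further library per condition used an IgG control antibody. PBS and arsenite formed 1 library set, TM and DMSO replicates 1 and 2 a further one, and their replicate 3 another. Nothing in the labels says that replicates came from separate cultures, so each p-value measures the spread between these libraries, which may be technical.

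IGF2BP3 is an oncofetal RNA-binding protein with RRM and KH domains that binds messenger RNA and is known for stabilising and localising its targets. In PAR-CLIP, 4-thiouridine in RNA crosslinks to the bound protein, and reverse transcription reads the crosslinked base as C, so T-to-C conversions mark contact with a protein. A cluster can show conversions only at its thymines. Arsenite causes oxidative stress and induces immediate early and heat shock genes, and tunicamycin blocks N-glycosylation and causes the unfolded protein response.

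The sequences below show what the rule takes in. Each is the middle 30 bases, or the whole where shorter, of the GC-rich cluster with most reads among those of at most 60 bases in its region, or of any length where none was that short. Letters are 5′ to 3′ on the cluster's strand, with T, the only base that can convert, in capitals. Coordinates are those of the cluster lists, on GRCh38. EGR1 stands first because its region held the most reads, followed by the POM121C gene, an unnamed region on the same chromosome with the same letters, and SLC7A5, all with a cluster in all 15 libraries.
EGR1 (chr5:138467399-138467428, plus strand): aacccagccgcaTgcgcaagTaccccaacc
POM121C (chr7:75422773-75422802, minus strand): TcagTcTcagccacagcgcccTccagcTcc
unnamed (chr7:73297150-73297179, plus strand): TcagTcTcagccacagcgcccTccagcTcc
SLC7A5 (chr16:87831687-87831716, minus strand): gcTgTcgcTgccTccaTggcagcagccagg
The next 6 come from regions that had clusters in all 3 arsenite libraries and in no PBS library.
EGR1, upstream region (chr5:138465490-138465519, plus strand): gcgcgcagaacTTggggagccgccgccgcc
DUSP2 (chr2:96143427-96143456, minus strand): aggagcccTgTcTgTgggTTcgTcTgccca
EGR4 (chr2:73291653-73291682, minus strand): ccgcaTcTgccTccgcaacTTcagccgcag
FOSB (chr19:45473985-45474014, plus strand): ccTcggTcTcccTTccgTccaTcccccTTc
EGR2 (chr10:62813434-62813463, minus strand): acaccggTgagaagcccTTcgccTgTgacT
JUNB (chr19:12791975-12792004, plus strand): cTTTTcTggTcagggcTcggacaccggcgc
These windows held 2 to 9 thymines in 30 bases. RPS2, a ribosomal protein gene, shows a high G+C content, at 78.6% over a 56-base cluster of 20 reads with 1 T in the printed window. The highest G+C of any cluster was 77.4% to 92.5% per library.
RPS2 (chr16:1964586-1964615, minus strand): acgccggTgcagcgggggggcccgggggcc

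The remaining printed sequences are whole clusters in tRNA genes, with GGTTC in capitals, the letters around the start of the T loop in most tRNAs. The last pair came from IgG libraries.
TRE-TTC2-2, a glutamate tRNA (chr15:26082231-26082305, minus strand): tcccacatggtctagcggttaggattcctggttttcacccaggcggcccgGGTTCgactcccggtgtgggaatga
TRE-TTC4-2, a glutamate tRNA (chr1:161422092-161422145, minus strand): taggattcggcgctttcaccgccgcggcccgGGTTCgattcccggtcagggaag
TRA-AGC3-1, an alanine tRNA (chr6:28607191-28607230, plus strand): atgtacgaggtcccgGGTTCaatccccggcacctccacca
TRA-AGC3-1, IgG library (chr6:28607194-28607230, plus strand): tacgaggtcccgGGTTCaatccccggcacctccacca
TRG-CCC2-2, a glycine tRNA, IgG library (chr16:636733-636775, minus strand): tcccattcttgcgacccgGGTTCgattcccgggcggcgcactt
GGTTC stood in 70.3% of the 516 GC-rich clusters in tRNA genes and in 4.81% of the other GC-rich clusters, searched on the cluster's strand only. Reads of one tRNA can map to several near-identical tRNA genes, so the gene that gave each cluster is uncertain.

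The number of members per list was lowest in the shallowest and highest in the deepest library. PBS replicate 2 was the shallowest, with a gene-count total of 130478 and 196 GC-rich clusters, and replicate 3 of TM at 4 h the deepest, with 1568406 and 4174. Cluster lists held no cluster under 2 reads or 2 conversion locations. GC-rich clusters had a median of 9 to 10 thymines per library and the remaining ones 15 to 17. How many clusters that minimum left out of either class was not tested. In GC-rich clusters C made up 37.9 to 39.5% of the letters, G 24.3 to 26.3%, T 19.7 to 21.2% and A 14.8 to 16.1%. C was thus more frequent than G in every library. Remaining clusters showed the same order, with C at 23.3 to 25.6% and G at 16.5 to 18.2%.

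The T-to-C conversion share, the percent of conversion events among conversion and non-conversion events, was higher in GC-rich than in remaining clusters in 15 of 15 libraries. It was 11.7% ± 0.626 in GC-rich clusters and 8.04% ± 0.401 in the remaining ones (mean ± SD, n = 15), a difference of 3.62 points with a range of 2.77 to 4.19. The two-sided sign-flip permutation p was 6.1e-05, the smallest these libraries can give, and 0.000122 after Benjamini-Hochberg adjustment over 6 comparisons of GC-rich with remaining clusters. Libraries within a group and groups within a set are not independent, which this test does not account for. Among clusters with at least 200 events the shares were 10.2% and 7.48%, with the GC-rich share higher in all 15 libraries. The share of thymines that were conversion locations showed the same order, with 38.4 locations per 100 thymines ± 2.17 in GC-rich clusters and 29.9 ± 2.55 in the remaining ones (15 of 15 libraries, adjusted permutation p = 0.000122). The lists' minimum of 2 locations is a larger share of the thymines where a cluster has fewer of them. Clusters with 2 locations made up 31.7% of GC-rich and 21.2% of remaining clusters (medians over libraries). The part of this minimum in the higher conversion share and the higher share of thymines was not tested. Per cluster, GC-rich clusters had fewer locations, 4.58 ± 0.364 against 6 ± 0.874, in 15 of 15 libraries (adjusted permutation p = 0.000122). With at least 200 events GC-rich clusters had 1.02 more locations on average, above 0 in 10 of 15 libraries. That cut counts events at thymines, of which GC-rich clusters have fewer, so it does not treat both classes alike.

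The conversion share followed G+C across the whole range of cluster composition rather than stepping at 60 percent. Over the 15 libraries its mean was 6.50% below 30 percent G+C, 7.34% from 30 to 40, 8.44% from 40 to 50 and 9.77% from 50 to 60. It was 11.5% from 60 to 70 percent and 15.0% at 70 percent or more, where libraries held 16 to 412 clusters. The order of the 6 bins was the same in 15 of 15 libraries. Among clusters with at least 200 events the order of the first 5 bins held in 14 of 15 libraries, with means from 6.003% to 10.2%. Just outside the threshold, at 59 to 60 percent, 3783 clusters had a share of 10.5% on average, and just inside, at 60 to 61 percent, 5271 clusters had 10.8%. The clusters with most reads on both sides lay in HMGA1, the gene of a chromatin architectural protein, with 5603 reads inside and 2440 outside. The number of thymines, neighbouring thymines, read length and mapping were not held equal across these bins. Their part in the trend, and that of the lists' minimum of 2 locations, was not tested.

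**Figure D1:**
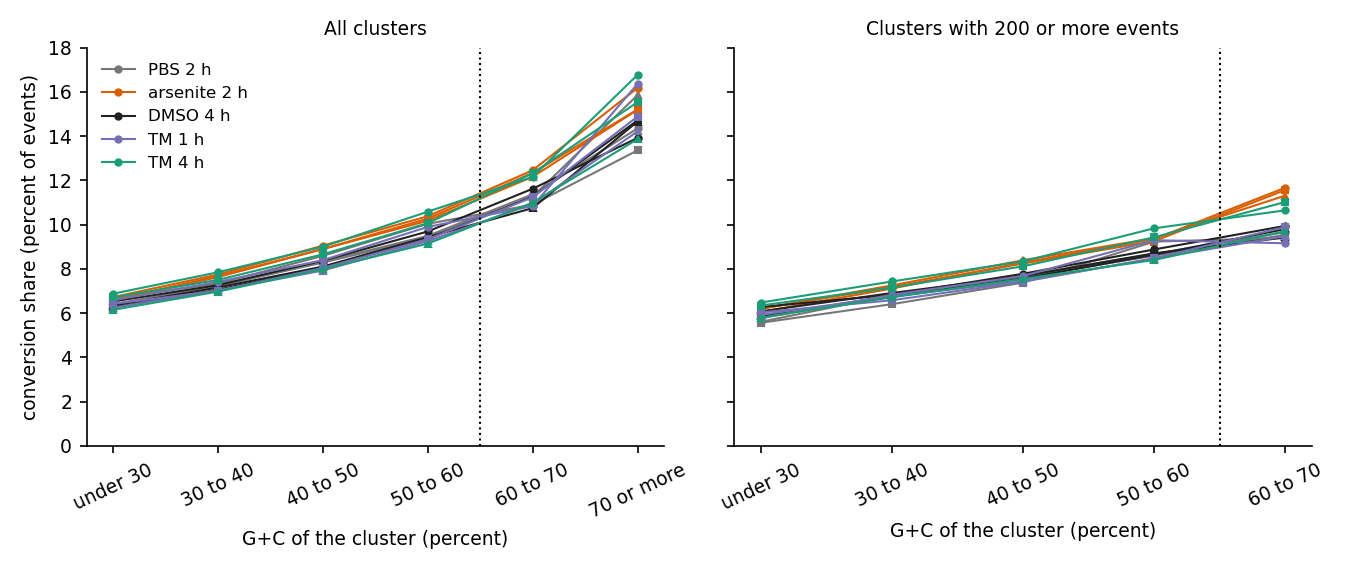
Conversion share in percent of events (vertical axis) against cluster G+C in 6 bins (horizontal axis) for each of the 15 libraries, coloured by group with a symbol per replicate, for all clusters and for clusters with at least 200 events. The dotted line marks 60 percent, and every line for all clusters rises from bin to bin, from a mean of 6.50% to 15.0%.

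In length and reads the GC-rich clusters were close to the others. Their median length was 48.1 bases ± 2.05 against 49.0 ± 2.30, shorter in 10 of 15 libraries and longer in 1 (adjusted permutation p = 0.0205), and this call was lost with a 55 percent threshold or with at least 5 reads per cluster. Among clusters with at least 200 events the direction turned, with GC-rich clusters 24.5 bases longer (permutation p = 0.000122). Mean reads per cluster were 13.6 ± 2.06 against 16.1 ± 3.07, lower in 12 of 15 libraries (adjusted permutation p = 0.00132). With at least 200 events GC-rich clusters held 32.8 more reads on average than the remaining ones. Events arise only at thymines, of which GC-rich clusters have fewer, so that cut asks more reads or length of them. Its part in both turns was not tested. Among the 3501 clusters with most reads per library the difference was 5.17 reads, above 0 in 8 of 15 libraries. A GC-rich cluster overlapped a cluster of another replicate in 71.8% ± 23.5 of cases, and a remaining one in 76.5% ± 21.0, lower for GC-rich clusters in 14 of 15 libraries (adjusted permutation p = 0.000183). The difference was near 0 for clusters with at least 200 events. The large spread of both shares went with depth, from 28.5% in TM 1 h replicate 3 to 96.2% in TM 1 h replicate 1 for GC-rich clusters, the deepest and shallowest library of that group.

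Sequence motifs were counted on the cluster's strand, overlaps included. The rule by itself favours motifs made only of G and C and disfavours TTTT. Since the share with a motif depends on length and composition, the remaining clusters are given at the GC-rich lengths, and counts are set against what the base composition of each class gives. GGAC, which contains the core of the m6A consensus, occurred in 20.6% of GC-rich clusters (range over libraries 18.4 to 24.1) and 12.0% of remaining ones. Against composition, however, GGAC was at 1.15 times the product of base frequencies in GC-rich and 1.29 times in remaining clusters. CACA, part of the CA-rich element known for IGF2BP proteins, occurred in 25.0% of GC-rich and 29.6% of remaining clusters, at 1.77 and 1.90 times composition. CATC occurred in 27.6% and 27.2%, whereas CATT occurred in 12.5% and 39.97%, and CATA in 4.87% and 23.0%. TGTA, the core of Pumilio sites, was at 5.03% and 22.3%, and TTTT at 5.35% and 38.1%. GGC occurred in 76.9% and 33.4%, GGGCC in 17.2% and 2.30%, GGGG in 27.0% and 7.08%, and CCCC in 55.3% and 14.6%. Against composition CCCC was at 0.95 times in GC-rich and 1.20 times in remaining clusters, GGGG at 2.03 and 2.07 times and GGGCC at 1.46 and 1.47 times. In the same order GGC was at 1.16 and 1.14 times, CATC at 1.38 and 1.26 and CATT at 0.98 and 1.46. CATA was at 0.49 and 0.94 times, TGTA at 0.61 and 1.07 and TTTT at 0.74 and 1.31. A match describes letters and does not show a site.

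By position, GC-rich clusters lay at gene starts more often than the others. Among clusters in protein-coding genes with a known strand, 5.01% ± 1.501 of GC-rich clusters (18549 in all) and 0.334% ± 0.0816 of remaining ones (271906) had their middle within 500 bases after the RefSeq gene start, and the GC-rich share was higher in 15 of 15 libraries. Within 500 bases of the gene end the shares were 18.7% ± 3.35 and 16.8% ± 2.45, higher for GC-rich clusters in 14 of 15 libraries. Transcription start regions of human genes are themselves G+C-rich, and the share of all transcribed sequence near starts was not measured here. Both classes lay in protein-coding genes to the same extent, 86.7% ± 2.07 and 86.8% ± 0.772. Chromosome 19, the most gene-dense human chromosome, held 3724 GC-rich clusters, 21.9% of its clusters and 14.1% of all GC-rich clusters. Chromosome 18 had the lowest share, with 153 of 5743 clusters (2.66%). Exon, intron and UTR positions were not analysed here.

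tRNA genes took up 2.52% ± 1.07 of GC-rich clusters and 0.391% ± 0.135 of remaining ones, with the GC-rich share higher in 15 of 15 libraries. In these genes the conversion share ran the other way from the whole: it was 6.73% ± 0.996 in GC-rich and 8.49% ± 1.87 in remaining clusters, higher for GC-rich clusters in 1 of 15 libraries. In protein-coding genes it was 12.1% ± 0.662 and 8.09% ± 0.404. By clusters, glutamate tRNA genes were the largest family, with 79 GC-rich clusters and 2073 reads from 10 genes. Lysine tRNAs had 72 clusters but more reads, 2297, from 12 genes. TRE-TTC2-2, TRE-TTC4-1, TRE-TTC3-1 and TRE-TTC4-2 each had a GC-rich cluster in all 15 libraries.

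**Figure D2:**
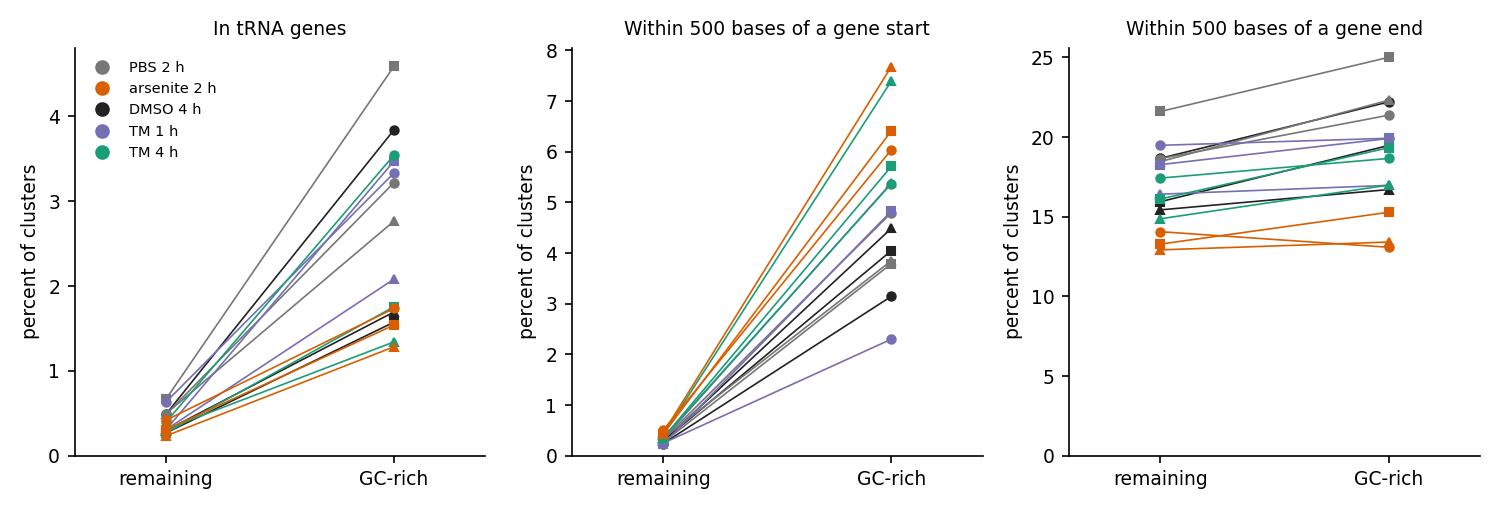
Percent of clusters (vertical axis) in tRNA genes, within 500 bases of a gene start and within 500 bases of a gene end, for remaining and GC-rich clusters, with a line per library coloured by group. All 15 lines rise for tRNA genes and gene starts, and 14 of 15 for gene ends.

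The IgG lists held few clusters, and their GC-rich members were mostly tRNA. Without the mitochondrial chromosome they listed 372 clusters, of which 62 (16.7%) were GC-rich. By condition these were 14 of 85 in PBS (16.5%, exact binomial 95% interval 9.31 to 26.1), 26 of 152 in arsenite (17.1%, 11.5 to 24.1), 9 of 39 in DMSO (23.1%, 11.1 to 39.3), 0 of 25 in TM 1 h (exact upper limit 13.7%, and 12% by 3 counts of 25) and 13 of 71 in TM 4 h (18.3%, 10.1 to 29.3). The intervals cover counting error only. Of the 62, 39 (62.9%) lay in tRNA genes and 10 in protein-coding genes, whereas 1.96% of the anti-IGF2BP3 GC-rich clusters lay in tRNA genes. The remaining IgG clusters were also often in tRNA genes. These numbered 29 in PBS, 31 in arsenite, 9 in DMSO, 5 in TM 1 h and 12 in TM 4 h. Among remaining anti-IGF2BP3 clusters the tRNA share was 0.391% on average. Frequent tRNA was thus not particular to the GC-rich IgG clusters, though over the lists together its share was higher among them than among the remaining ones. An anti-IGF2BP3 cluster of the same condition overlapped 55 of the 62. The IgG PBS and arsenite lists carry each other's names in their file names, so no direction is drawn between them. TRA-AGC3-1 had a GC-rich cluster in 14 of 15 anti-IGF2BP3 libraries and in 2 IgG libraries, TRE-TTC2-2 in 15 and 2, and TRE-TTC4-2 in 15 and 0.

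Clusters that overlapped on a strand were merged over the 15 libraries into regions, and a region was called GC-rich where at least 50% of its clusters met the rule. There were 5710 GC-rich regions in 2514 named genes, with a median length of 57 bases, against 69448 remaining regions with a median of 61 bases. GC-rich regions were more often seen once: 2685 (47.0%) had a cluster in 1 library and 54 (0.946%) in all 15, against 39.6% and 2.19% of remaining regions. Of the 54, 39 lay in protein-coding genes and 5 in tRNA genes, and 10 had no gene of the RefSeq table.

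EGR1, the gene of an immediate early zinc finger transcription factor, had the most reads among the 54 regions, through the arsenite libraries. Its region (chr5:138466743-138468103) held 501, 966 and 721 reads per 1000000 cluster reads (RPM) in the PBS libraries and 13326, 11283 and 8846 in the arsenite libraries. In DMSO it held 1291, 759 and 1284, after 1 h of TM 264, 448 and 542, and after 4 h of TM 837, 980 and 518. All 3 arsenite libraries thus stood above every other library, and all 3 TM 1 h libraries below every DMSO library. Its median over the 15 libraries, 837, was below those of POM121, POM121C and SLC7A5, the last at 1139. Its conversion share stayed between 11.1% and 15.6% in all 15 libraries, at a mean of 14.2% in PBS and 13.6% in arsenite.

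POM121 and POM121C, near-identical genes of a nuclear pore membrane protein, came next in reads, with medians over libraries of 1685 and 1635 RPM. An unnamed region on chromosome 7 (chr7:73296873-73297795) followed, with a median of 1256. All 68 of its clusters (100%) shared their letters with a cluster of POM121C, and 81.6% of the 114 POM121 clusters did, so these 3 regions may hold the same reads and are uncertain as separate sites. POM121C averaged 1855 RPM in PBS and 1750 in arsenite. With TMM scaling it was called higher in arsenite, at a log2 fold change of 0.41 ± 0.11 (adjusted p = 0.048 in edgeR). With read totals of the tested regions in place of TMM the log2 fold change was 0.19 (adjusted p = 0.349 in edgeR). Its call thus depended on the scaling, and its mean RPM over all cluster reads pointed the other way. SLC7A5, the gene of the large neutral amino acid transporter LAT1, held 1214, 1586 and 1257 RPM in PBS and 685, 680 and 692 in arsenite, with no overlap, and 842 to 1412 in the DMSO and TM libraries. Its log2 fold change in arsenite was -0.47 ± 0.13 with adjusted p = 0.065 in edgeR. With read totals of the tested regions in place of TMM it was -0.67 with adjusted p = 0.012 in edgeR. An unnamed region on chromosome 12 (chr12:110429059-110429175) ranged from 421 to 2974 RPM, the highest being PBS replicate 2, the shallowest library. ZFP36L1, the gene of an mRNA decay factor that binds AU-rich elements, held 1163, 1264 and 1198 in PBS, 1699, 1566 and 1073 in arsenite and 446 to 897 in the DMSO and TM libraries. With TMM scaling it was called higher in arsenite, at a log2 fold change of 0.68 ± 0.17 (adjusted p = 0.035 in edgeR). In RPM over all cluster reads the groups overlapped, with arsenite replicate 3, at 1073, below every PBS library. The last of the 8, on chromosome 8 in a stretch with several annotated genes, ranged from 473 to 1421. Apart from EGR1, the conversion shares of these regions lay between 7.84% and 11.9%.

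**Figure D3:**
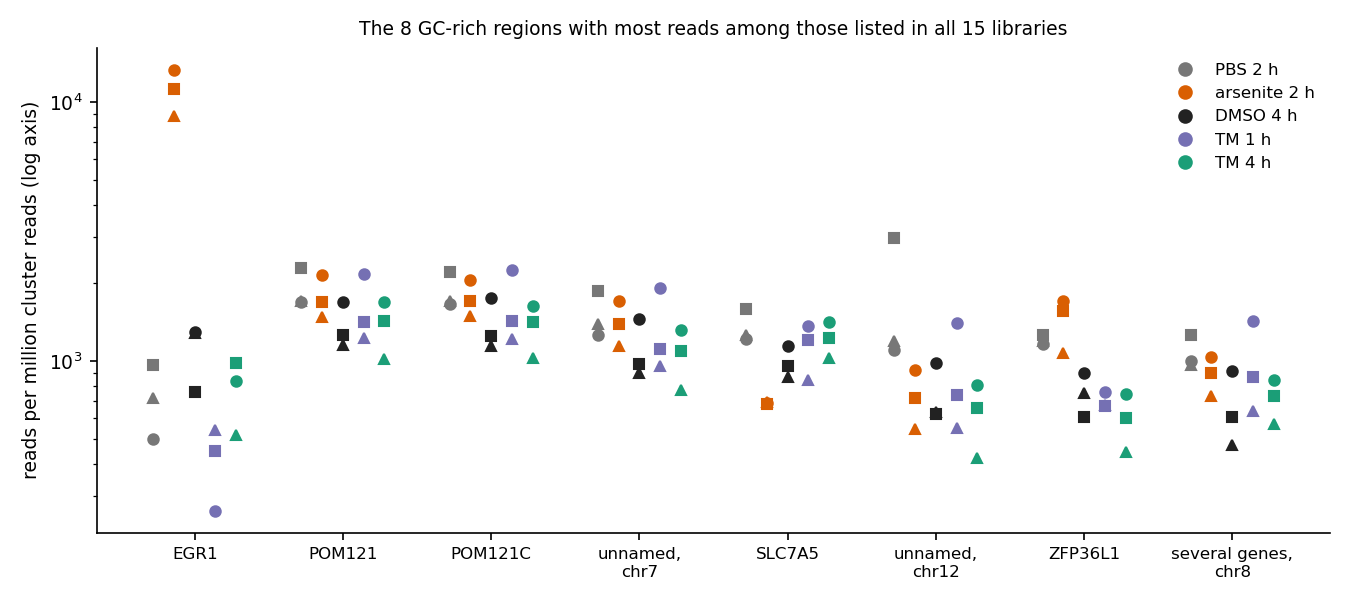
RPM, over all cluster reads, (vertical log axis) of the 8 GC-rich regions with most reads among those listed in all 15 libraries, with a point per library coloured by group. EGR1 reaches 8846 to 13326 in arsenite, and the other 7 regions lie between 421 and 2974.

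Tunicamycin was set against DMSO first over the whole class of GC-rich clusters, to ask whether their number, length, reads or conversions differ in the unfolded protein response. GC-rich clusters made up 5.28%, 5.56% and 6.39% of the clusters in DMSO, 4.98%, 5.34% and 6.17% after 1 h and 5.86%, 6.43% and 6.61% after 4 h of TM. The groups overlapped at both times, with differences of -0.25 and 0.55 points (exact permutation p = 0.6 and 0.2, two-sided, adjusted p = 0.9 and 0.6 over 15 comparisons). Within the library set of replicates 1 and 2 the differences were -0.26 and 0.72 points, and between the replicate 3 libraries -0.21 and 0.22. The same held for the GC-rich conversion share, 11.3% ± 0.421 in DMSO, 11.2% ± 0.170 after 1 h and 12.0% ± 0.755 after 4 h (exact permutation p = 0.6 and 0.3, n = 3 per group). Its differences were -0.35 and 0.85 points in the first set, and 0.19 and 0.22 between the replicate 3 libraries, so the direction at 1 h was not the same in both sets. Median length was 49.0 ± 2.65 in DMSO, 48.0 ± 2.00 after 1 h and 49.0 ± 2.65 after 4 h, and mean reads per cluster were 14.05 ± 2.60, 12.6 ± 1.56 and 13.6 ± 1.94. With 3 libraries per group the smallest possible p is 0.1, so no difference could pass 0.05.

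Among single regions, none of the 439 GC-rich regions tested passed an adjusted p of 0.05 in edgeR at either time. An unadjusted p under 0.05 was seen in 13 and 10 of them, against 307 and 262 of all 11153 regions. Over all regions 0% were called after 1 h and 0.108% (12 regions, 0.0807% higher and 0.0269% lower) after 4 h. DESeq2 called 0 and 4 GC-rich regions, against 9 and 55 of all regions. A library without a listed cluster counts as 0 reads in this test, and with simulated 2-fold changes it recovered 0% of changed regions at both times. For a fit of only the regions with a cluster in all 9 libraries, the simulation recovered 71% and 74% of such changes, with 5 and 8 false calls. It gave all regions of a fit the same spread and dropped no cluster below the lists' minimum, so recovery in the real counts may differ. That fit held 96 GC-rich regions. In that fit 2 of them rose after 4 h, against 0.674% called of 3414 regions (0.498% higher and 0.176% lower), and 0 were called after 1 h. These were GAPDH, a glycolytic enzyme gene, and RACK1, the gene of a 40S ribosomal scaffold protein, both outside the rule for named regions and named because they are the whole count. GAPDH (chr12:6537594-6537985) held 150, 136 and 134 TMM-scaled RPM (per 1000000 reads in the tested regions) in DMSO and 281, 289 and 280 after 4 h of TM. The groups did not overlap, and the log2 fold change was 1.06 ± 0.19 (SE, adjusted p = 0.005 in edgeR), against 1.03 with adjusted p = 0.063 over all regions. RACK1 (chr5:181243684-181243912) held 175, 145 and 141.9 in DMSO and 319, 298 and 289 after 4 h, without overlap, at a log2 fold change of 1.02 ± 0.20 (adjusted p = 0.010 in edgeR) and adjusted p = 0.131 over all regions. EGR1 after 1 h of TM had a log2 fold change of -1.40 ± 0.29 with adjusted p = 0.628, and -1.39 with adjusted p = 0.051 among regions in all libraries, so it passed in neither edgeR fit.

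GC-rich regions of the unfolded protein response list gave little to test. Of its 25 genes, 15 had a GC-rich region, and 1 such region, in ATF4, the gene of the transcription factor of the PERK branch, was deep enough for the TM fit and was not called at either time. Of the 52 regions of any composition in this list, 0 were called after 1 h and 8 rose after 4 h, none of them GC-rich. Immediate early genes had 4 GC-rich regions tested and the actin, tubulin and elongation factor list 18, with 0 called at both times over all regions tested, and the heat shock list had none tested. GAPDH and RACK1 belong to the actin list, and they are the 2 of its 6 GC-rich regions with a cluster in all libraries that rose after 4 h in that fit.

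Arsenite against PBS asked the same of oxidative stress, and here the groups of GC-rich clusters did not overlap in several measures. GC-rich clusters made up 6.66%, 5.60% and 6.05% of clusters in PBS and 7.42%, 7.50% and 7.53% in arsenite, a difference of 1.38 points. The exact permutation p was 0.1, the smallest these 3 against 3 libraries allow, and 0.375 after adjustment over 15 comparisons, so the difference was not significant. The difference was 1.21 points without clusters of the immediate early gene list, and 0.29 points among clusters with at least 200 events. GC-rich clusters also took 5.35%, 5.76% and 5.22% of all cluster reads in PBS and 7.74%, 7.93% and 7.35% in arsenite, again without overlap. Gene-count totals were 130478 to 423906 in PBS and 414033 to 1098488 in arsenite, so depth moved with the groups. Restricting each library to its 3501 clusters with most reads, as many as the smallest list holds, gave a difference in the GC-rich share of 1.504 points.

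**Figure D4:**
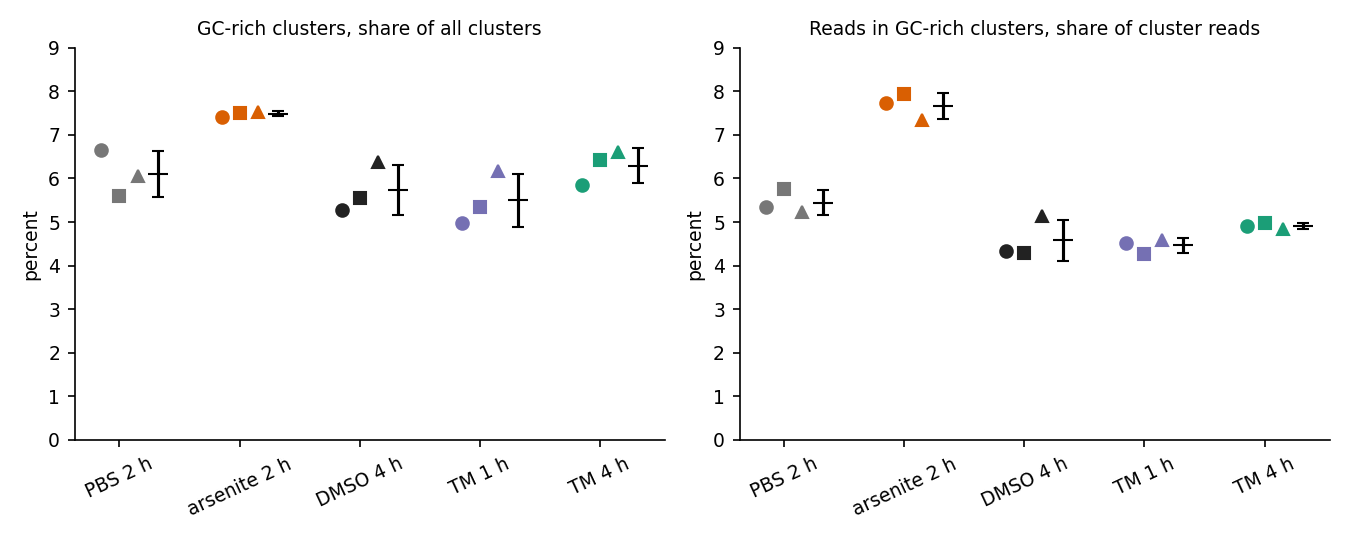
GC-rich clusters as a percent of all clusters and their reads as a percent of all cluster reads (vertical axes), by group (horizontal axis), with a symbol per replicate and the mean ± SD beside each group (n = 3). Arsenite libraries lie at 7.42% to 7.53% of clusters and PBS libraries at 5.60% to 6.66%, while DMSO and TM libraries overlap in the share of clusters.

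Mean reads per GC-rich cluster were 12.0 ± 0.341 in PBS and 15.9 ± 1.58 in arsenite, without overlap (exact permutation p = 0.1, adjusted p = 0.375). Without clusters of immediate early genes the difference of 3.97 reads was 1.09, and the median reads per GC-rich cluster differed by 0. The conversion share was 11.5%, 11.0% and 11.5% in PBS and 12.7%, 12.5% and 12.3% in arsenite, a difference of 1.16 points (exact permutation p = 0.1, adjusted p = 0.375). Remaining clusters differed in the same direction, 8.002% ± 0.189 against 8.56% ± 0.108, and the GC-rich excess over them was 0.60 points larger in arsenite. It was 0.327 points without PBS replicate 2 and 0.313 without immediate early genes. It turned to -0.32 points with a threshold of 65 percent. Median length was 47.0 ± 2.00 and 47.3 ± 1.53 bases, overlapping.

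Single GC-rich regions in arsenite were led by immediate early genes. Of 190 GC-rich regions tested, 43 (22.6%) had an adjusted p under 0.05 in edgeR, 40 higher and 3 lower in arsenite, against 12.7% of all 4292 regions tested. By direction, 21.1% of GC-rich regions were called higher and 9.97% of all regions, and 1.58% lower against 2.77% of all. In 106 of the 190 (55.8%) the 3 PBS and 3 arsenite values did not overlap, against 40.6% of all regions. With read totals of the tested regions in place of TMM, 39 were called higher and 7 lower. The median of all tested regions moved from 0.25 to 0.06 on the log2 scale. Over all regions the split moved from 428 up and 119 down to 417 up and 213 down. These totals are not library depth. At the extremes, tested regions held 38193 of 40353 cluster reads in PBS replicate 2 and 493644 of 814702 in arsenite replicate 3. Of the 40 called higher, 27 had no cluster in any PBS library and 13 had one. Since the lists hold only clusters that passed the caller, no listed cluster does not mean no reads, and no fold is given for those 27. They passed the filter on low counts only through arsenite, where they are high, so their calls and any count that holds them are given as a description. That filter asks for reads in as many libraries as a group holds. A region with clusters in only some PBS libraries thus also needed arsenite libraries to pass it. The count of called GC-rich regions moved with single libraries, as did the count over all regions. It was 83 of 285 without PBS replicate 2, against 1102 of 5675 over all regions. Without PBS replicate 3 it was 17 of 263, against 136 of 5220. Without arsenite replicates 1, 2 and 3 it was 7 of 245, 6 of 229 and 5 of 235. Over all regions these were 37 of 5285, 25 of 4955 and 28 of 5005. Among regions with a cluster in all 6 libraries 22 of 65 GC-rich regions (33.8%) were called, 19 higher and 3 lower, against 20.1% of 1812 (12.4% higher and 7.73% lower), and 10 regions were called in both fits. There the median log2 fold change of GC-rich regions was -0.02 and that of all regions 0.00.

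The immediate early list had 17 of 22 genes with a GC-rich region, and 17 of its 18 GC-rich regions tested were called higher and 0 lower. Of the 17, 13 had no PBS cluster and entered the test only through arsenite, and 4 had one. Of the 18 tested, 1, the main EGR1 region, had a cluster in every PBS and arsenite library. Regions with clusters in only some PBS libraries, such as ZFP36 and NR4A1 below, also needed arsenite libraries to pass the filter, so their calls are a description. Over regions of any composition 39 of 42 in the list were called higher. This list and its genes were known from earlier results of these data and are no independent evidence. The main EGR1 region held 643, 779 and 913 TMM-scaled RPM in PBS and 18717, 17467 and 15521 in arsenite. The groups lay far apart, with a log2 fold change of 4.47 ± 0.16 (adjusted p = 1.97e-05 in edgeR). The upstream EGR1 region (chr5:138465456-138465933), at 70.3% mean G+C, had no cluster in PBS and 1503, 1334 and 1202 RPM in arsenite. ZFP36, the gene of the AU-rich element binding protein tristetraprolin, had a cluster of 5 reads in 1 PBS library and held 1767, 1854 and 1628 RPM in arsenite. NR4A1, the gene of an orphan nuclear receptor, had 3 such regions, of which the one with most reads (chr12:52058760-52059046) had a cluster of 9 reads in 1 PBS library and 1635, 1574 and 1187 RPM in arsenite.

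Of the regions tested in the other transcription factors of the list, 1 JUNB region (chr19:12792706-12792916) had a PBS cluster, of 6 reads in 1 library, and the others had none. EGR2, EGR3 and the related EGR4, the last outside the list, are zinc finger factors, and FOS, FOSB, JUN and JUNB form the AP-1 factor. EGR3 had 3 regions, with arsenite means of 564 ± 113, 380 ± 92.8 and 146 ± 41.2 RPM (SD, n = 3). EGR4 (chr2:73291638-73291696) held 382, 350 and 349, and EGR2 (chr10:62813424-62813559) 343, 313 and 271. FOSB (chr19:45473895-45474180) held 349, 443 and 258, and the called JUNB region with most reads (chr19:12791738-12792123) 198, 244 and 228. The JUNB region with a PBS cluster held 257, 256 and 200 in arsenite and was not called (adjusted p = 0.097 in edgeR). JUN held 231, 163 and 181, and the FOS regions 207 ± 63.5 and 173 ± 14.5. DUSP2, the gene of a nuclear MAP kinase phosphatase and no member of the list, held 468, 496 and 584 (chr2:96143394-96144001). For the regions of this paragraph without a PBS cluster no p-value is given, since they entered the test only through the arsenite libraries.

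**Figure D5:**
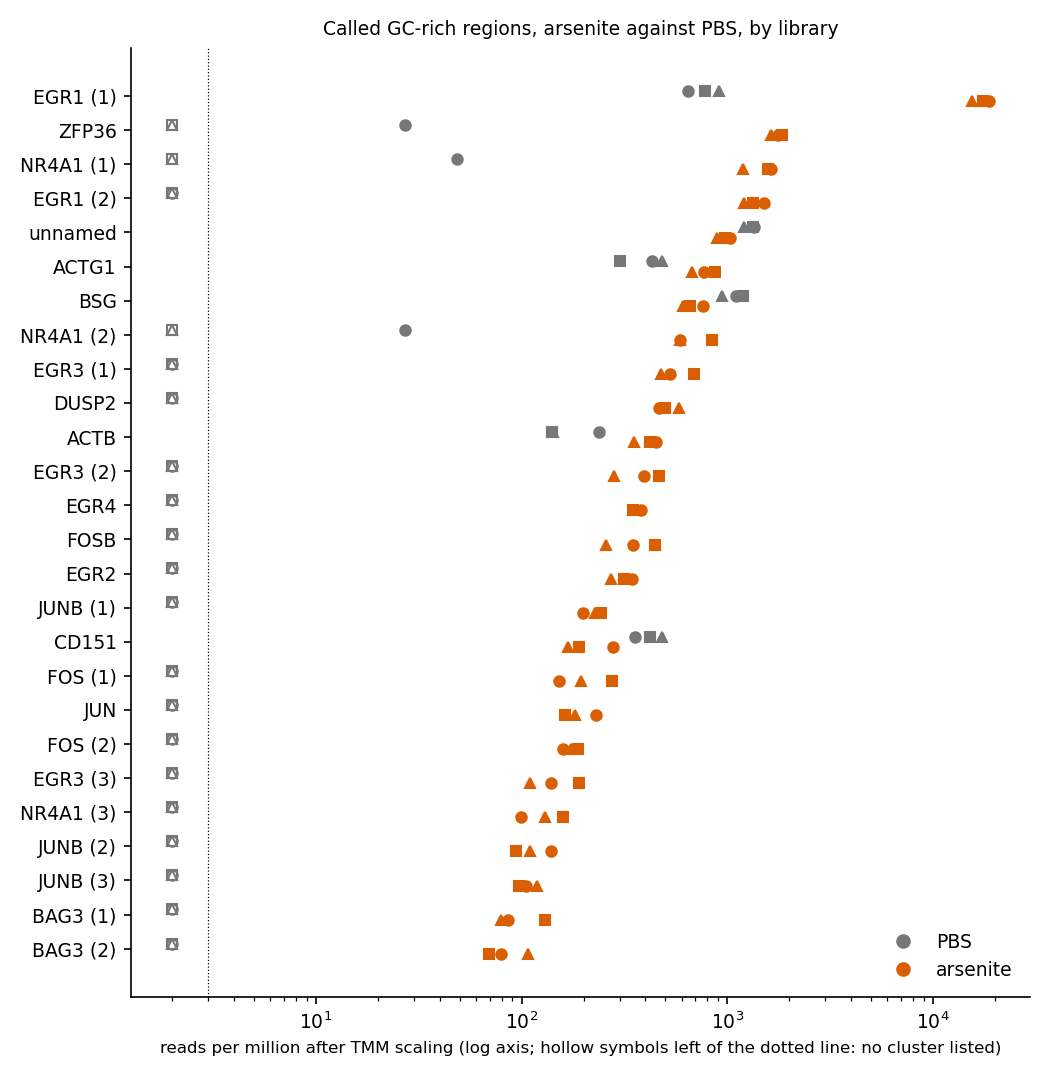
TMM-scaled RPM (horizontal log axis) of the called GC-rich regions that the naming rule takes, with points for the 3 PBS and 3 arsenite libraries and a symbol per replicate; hollow symbols left of the dotted line stand for libraries with no listed cluster. Regions of one gene are numbered by their arsenite mean, and CD151, BSG and the unnamed region are the ones higher in PBS.

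Of the heat shock list, 6 of 12 genes had a GC-rich region, and the 2 regions tested lay in BAG3, the gene of a co-chaperone of HSP70. They held means of 85.3 ± 20.0 and 98.5 ± 27.6 RPM in arsenite and had no cluster in PBS. They entered the test only through arsenite, so their calls are no support for a rise. The list of actin, tubulin and elongation factor genes had 13 GC-rich regions tested, of which 2 (15.4%) rose and 0 fell, where 9.97% of all regions rose. Of its 53 regions of any composition 3 rose and 4 fell. ACTG1, a cytoplasmic actin gene (chr17:81511185-81511630), held 432, 299 and 479 RPM in PBS and 771, 870 and 674 in arsenite, without overlap, at a log2 fold change of 0.86 ± 0.19 (adjusted p = 0.021 in edgeR). ACTB, the other cytoplasmic actin gene, held 238, 140 and 142.6 in PBS and 448, 419 and 353 in arsenite, at 1.16 ± 0.28 (adjusted p = 0.031). The unfolded protein response list had no GC-rich region deep enough to test, while 7 of its 20 regions of any composition rose and 1 fell.

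The 3 GC-rich regions that fell were CD151, BSG and an unnamed region. CD151, a tetraspanin gene (chr11:838423-838831), held 357, 419 and 479 RPM in PBS and 277, 191 and 168 in arsenite, at a log2 fold change of -1.01 ± 0.27 (adjusted p = 0.045 in edgeR). BSG, the gene of basigin, a partner of lactate transporters (chr19:582748-583468), held 1108, 1198 and 947 in PBS and 765, 659 and 612 in arsenite, at -0.67 ± 0.15 (adjusted p = 0.020). The unnamed region on chromosome 12 (chr12:110429384-110429784), beside the one described above, held 1351, 1337 and 1209 in PBS and 1028, 976 and 894 in arsenite, at -0.43 ± 0.11 (adjusted p = 0.047), and was not called among regions in all libraries (adjusted p = 0.257). In each of the 3 the groups did not overlap. PAR-CLIP reads depend on the amount of the RNA as well as on binding, and the 2 cannot be told apart in these data.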

How the data were processed

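Per the submitters' processing notes, the reads were handled with bcl2fastq 2.20.0.422, UMI-tools 1.1.1, Trimmomatic 0.30, Bowtie 0.12.7 and featureCounts 2.0.1 on GRCh38.p13. The cluster caller is not given in the sources used here. The deposited cluster lists give, per the file headers, whole-number counts of reads, conversion locations, conversion events and non-conversion events for each cluster, with its sequence. The deposited gene count table served for depth only, because its gene IDs could not be paired with names, so the cell line's markers were not checked. Cluster sequences equalled the RefSeq promoter letters at the same GRCh38.p14 coordinates in 1146 of 1146 clusters that lay in such a window. Names came from the RefSeq gene table of that assembly, by the middle of the cluster and its strand where known.

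Conversion shares were summed events per library. Groups were compared by exact two-sided permutation tests and classes by sign-flip permutation over 15 libraries. Region reads were tested in edgeR 4.0.16 (quasi-likelihood, TMM, filterByExpr, Benjamini-Hochberg over all regions). SE is the log2 fold change over the square root of F. DESeq2 1.42.0, read totals without TMM and other settings served as alternatives. Those totals sum the reads of the tested regions only, not all cluster reads of a library. Fits took DMSO with both TM groups, and PBS with arsenite. The edgeR step was tested on simulated counts with 200 changed regions. Every replicate pair differed beyond counting noise. Named regions were the 8 with most reads among those in all 15 libraries, up to 8 called in each direction per comparison by log2 fold change with a mean of at least 20 reads and no overlap, and called members of 4 gene lists. The members and lists were chosen with earlier results of these data known. The settings with at least 200 events, without immediate early or small RNA genes, among clusters of regions in every library, and for regions in 1 library set were chosen after seeing the data.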

Additional observations from a re-analysis of the deposited data

How the results depend on the processing

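Over the alternatives run, 325 of 361 values kept their direction and their side of the threshold or, for counts, stayed within 1.5 times. Many of these values belong to the 15 comparisons of groups, where no p could fall below 0.1. Their side of 0.05 was fixed in advance, and only their direction could move. The replicate 3 set alone gave no p. The higher conversion share and the higher number of locations per 100 thymines of GC-rich clusters did so under every alternative run. No alternative changed the lists' minimum of 2 conversion locations. The length difference was 0 at a threshold of 55 percent, -0.533 with at least 5 reads and 24.5 with at least 200 events, and the difference in reads was 5.17 among the clusters with most reads and 32.8 with at least 200 events. With at least 200 events, locations per cluster differed by 1.02 and the share found again by -0.000376. For TM 1 h the difference in the GC-rich share was 0.0952 among the clusters with most reads and 0.251 with at least 200 events. Its conversion share difference was 0.189 in the library set of replicate 3 alone, and the excess over remaining clusters was 0.0473 among the clusters with most reads and 0.380 in that set. For arsenite the length difference was -0.333 without immediate early genes, and the conversion excess was -0.325 at 65 percent.

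Leaving out 1 library at a time gave -0.583 to 0.0765 for the TM 1 h share, -0.667 to 1.33 for the arsenite length and -1.82 to 0.773 for the TM 4 h reads. It gave -0.392 to 0.0264 for the TM 1 h conversion share and -0.310 to 0.0938 for its excess over remaining clusters. GC-rich regions called without 1 library numbered 5 to 83 for arsenite and 0 for both TM times. Over all regions the calls were 25 to 1102 for arsenite, 0 for TM 1 h and 3 to 10 for TM 4 h. With no filter on low counts, GC-rich calls numbered 73, 1 and 2 for arsenite, TM 1 h and TM 4 h. All regions then gave 780, 23 and 65. For arsenite GC-rich calls numbered 72 with DESeq2 (1099 over all regions) and 22 among regions in every library (365 over all regions). They numbered 13 of 45 where all clusters of a region had to meet the rule. For TM 4 h they numbered 4 with DESeq2 (55 over all regions) and 2 among regions in every library (23 over all regions). With the replicate number as a block the arsenite count was 13, against 104 over all regions, and the TM counts of GC-rich regions stayed 0. In TM and DMSO replicate 3 is also a library set, and its libraries correlated at 0.212 to 0.218 in their deviations. The replicate 1 libraries correlated at 0.109 to 0.147, the replicate 2 libraries at -0.02 to 0.02 and same-numbered PBS and arsenite libraries at -0.07 to 0.12. Apart from the replicate 3 set, the numbers are thus not shown to pair libraries. The cause of these shifts was not tested, apart from the fewer regions that stricter rules leave. PBS replicate 2 holds the fewest GC-rich clusters, 196.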
